A study of Mus musculus with 8 samples.

Results

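Cytochrome P450 genes were taken as every gene symbol present in both count tables of the study that is written Cyp, a family number, a subfamily letter and a gene number. This gave 93 of the 24421 symbols, in 16 families and 38 subfamilies. Symbols of another form, such as Cyp51 of sterol synthesis, Cyp2ab1 and pseudogenes, were left out by the rule. The gene family was selected on results of these same libraries: its calls in the Ubc9 comparison and its counts in one of the Ubc9-depleted libraries were known when it was chosen. Shares and medians over its members are therefore given as a description and support nothing, and each gene's adjusted p comes from a fit across all genes.

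Cytochromes P450 are haem enzymes that insert an oxygen atom into a substrate, with electrons that Por and cytochrome b5 bring to the enzymes of the endoplasmic reticulum and ferredoxin to those of the mitochondria. Families 1 to 4 act mainly on drugs, pollutants and fatty acids, whereas the higher-numbered families act mainly on cholesterol, steroids, bile acids, vitamin D and retinoic acid. Most are known from liver, intestine, kidney or steroid-producing glands and have no established role in pluripotent cells, apart from the Cyp26 enzymes, which degrade retinoic acid, a signal that drives embryonic stem cells to differentiate.

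The libraries hold polyA-selected RNA of mouse embryonic stem cells grown in 2i/LIF, a medium that keeps them in a naive pluripotent state. There were 2 libraries in each of 4 groups. Ubc9-depleted v6.5 cells had received doxycycline for 72 hours to remove Ubc9, the conjugating enzyme of the SUMO modification, and were set against v6.5 cells labelled WT (Ubc9 control). H1 TKO cells, in which the linker histone genes Hist1h1c, Hist1h1d and Hist1h1e are knocked out and which were made for an earlier publication, were set against cells labelled H1 WT (H1 control). Doxycycline treatment of the Ubc9 control cells is not mentioned in the labels, nor is the number of clones behind a line or the culture each library came from, so p-values measure only the spread between libraries. The comparisons were sequenced with different kits and share no control.

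The genes targeted in H1 TKO cells followed the labels: Hist1h1c, Hist1h1d and Hist1h1e had 0 counts in both H1 TKO libraries and 1.64 to 4.48 CPM (counts scaled to library size) in H1 control libraries. Libraries held between 44441713 and 102780141 counts, and the summed level of 6 embryonic stem cell markers was 3516 to 3641 CPM in Ubc9-depleted and 3532 to 3658 CPM in Ubc9 control libraries, and 4817 to 5209 CPM in H1 TKO and 3324 to 3913 CPM in H1 control libraries. Of 8 hepatocyte markers, Fgb and Serpina1a had 21 and 8 counts in Ubc9-depleted library 1 and 0 in depleted library 2 and in both Ubc9 controls. Alb, Fgb and Serpina1a were at 0 in H1 TKO, and Alb, Ttr, Fgb and Serpina1a in H1 control. Apoa2 alone had 21.1 and 22.0 CPM in H1 TKO and 30.2 and 37.4 CPM in H1 control libraries. The summed level of the 8 hepatocyte markers was 9.71 to 13.7 CPM in Ubc9-depleted and 13.1 to 13.8 CPM in Ubc9 control libraries, and 21.3 to 22.6 CPM in H1 TKO and 30.4 to 37.7 CPM in H1 control libraries. That of 7 fibroblast markers was 30.4 to 32.0 CPM in Ubc9-depleted and 12.1 to 12.4 CPM in Ubc9 control libraries. That of 6 primitive endoderm markers was 20.3 to 25.7 CPM in Ubc9-depleted and 13.1 to 13.3 CPM in Ubc9 control libraries, and 14.7 to 16.7 CPM in H1 TKO and 7.89 to 8.98 CPM in H1 control libraries. In the H1 comparison Dab2 made most of the rise (means of 10.5 CPM in H1 TKO and 1.66 CPM in H1 control). Gata6 (1.26 against 0.612 CPM) and Pdgfra (1.25 against 1.08 CPM) were also higher. Lower in H1 TKO were Gata4 (2.20 against 3.86 CPM), Sox17 (0.411 against 0.680 CPM) and Sox7 (0.141 against 0.551 CPM). Of 4 macrophage markers, Ptprc and Adgre1 were at 0 in all 4 H1 libraries. Cd68 alone had 41.5 and 49.1 CPM in H1 TKO and 13.6 and 27.7 CPM in H1 control libraries. The summed level of the macrophage markers was 42.0 to 49.2 CPM in H1 TKO and 13.6 to 28.0 CPM in H1 control libraries. That of 4 enterocyte markers was 1.71 to 3.68 CPM in Ubc9-depleted and 0.760 to 0.967 CPM in Ubc9 control libraries, and 0.525 to 0.854 CPM in H1 TKO and 0.95 to 1.03 CPM in H1 control libraries. The part of these cell types in the differences below was not tested. Ubc9-depleted library 1 stood apart from the other 3 Ubc9 libraries: it had counts on 23462 genes, against 18584 to 19591, and results that rest on it are given with and without it. In bulk RNA, a change in the number of cells that carry a transcript and a change in RNA per cell cannot be told apart.

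Promoters are shown for 5 genes on which the comparisons below turn: Cyp2b23 and Cyp4f39, higher in both Ubc9-depleted and H1 TKO cells (Cyp4f39 not without Ubc9-depleted library 1), Cyp2c70, lower in both, Cyp26a1, higher in H1 TKO cells, and Cyp2c55, with a large change in Ubc9-depleted cells. Each line gives the 250 bases before the annotated RNA start on the gene's own strand, 5′ to 3′, from RefSeq on GRCm38.p6 (the coordinates of mm10). Capitals mark the motif named for that gene on either strand: the dioxin response core GCGTG in Cyp4f39, the TATA box TATAAA in Cyp2c70 and Cyp2c55 and a retinoic acid response element, a repeat of AGTTCA with 5 bases between the copies, in Cyp26a1. The Cyp2b23 window held none of the motifs searched and has no capitals.
Cyp2b23, chr7:26686431-26686680, minus strand: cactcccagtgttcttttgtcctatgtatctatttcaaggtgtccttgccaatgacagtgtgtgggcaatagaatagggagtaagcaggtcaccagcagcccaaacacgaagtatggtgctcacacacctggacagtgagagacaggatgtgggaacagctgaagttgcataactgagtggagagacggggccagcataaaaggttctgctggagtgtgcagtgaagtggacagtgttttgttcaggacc
Cyp4f39, chr17:32452473-32452722, plus strand: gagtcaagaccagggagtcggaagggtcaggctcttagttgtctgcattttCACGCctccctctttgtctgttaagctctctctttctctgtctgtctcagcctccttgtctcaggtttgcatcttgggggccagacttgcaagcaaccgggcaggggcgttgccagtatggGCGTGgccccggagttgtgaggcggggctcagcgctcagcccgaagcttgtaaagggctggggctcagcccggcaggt
Cyp2c70, chr19:40187287-40187536, minus strand: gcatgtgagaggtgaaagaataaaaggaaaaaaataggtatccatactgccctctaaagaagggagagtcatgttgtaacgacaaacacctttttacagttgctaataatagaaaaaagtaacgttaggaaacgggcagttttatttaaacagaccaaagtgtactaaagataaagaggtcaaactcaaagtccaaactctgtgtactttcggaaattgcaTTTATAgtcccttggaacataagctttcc
Cyp26a1, chr19:37697558-37697807, plus strand: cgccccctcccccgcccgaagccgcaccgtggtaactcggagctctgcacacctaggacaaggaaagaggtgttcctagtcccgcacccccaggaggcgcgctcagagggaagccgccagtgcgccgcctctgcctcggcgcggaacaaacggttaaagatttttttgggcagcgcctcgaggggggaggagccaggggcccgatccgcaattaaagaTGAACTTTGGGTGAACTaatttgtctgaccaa
Cyp2c55, chr19:39006769-39007018, plus strand: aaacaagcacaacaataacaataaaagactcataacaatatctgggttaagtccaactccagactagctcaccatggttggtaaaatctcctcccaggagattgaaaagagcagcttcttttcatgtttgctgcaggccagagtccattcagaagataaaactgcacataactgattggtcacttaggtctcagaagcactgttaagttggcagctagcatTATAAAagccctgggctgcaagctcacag

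A promoter window was available for 72 of the 93 members, and 5 motifs were searched on both strands in these and in all 32851 windows of the same length. TATAAA was in 27 of the 72 windows and in 12.4% of all windows. The match at -29 from the start was on the gene's own strand in Cyp2c55 and on the opposite strand in Cyp2c70. GCGTG, the core bound by the dioxin receptor Ahr with Arnt, was in 14 of the 72 and in 28.2% of all, among them Cyp1a1 and Cyp1b1, which are known Ahr targets. AGTTCANNNNNAGTTCA was in 1 of the 72, that of Cyp26a1 at -32, and in 7 windows in all (0.0213%). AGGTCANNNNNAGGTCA and GATTNAATC, the core motif of the transcription factor Dux, were in 0 of the 72, against 0.00913% and 0.247% of all windows. These are matches of letters, not binding sites.

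In Ubc9-depleted cells the P450 transcripts together came to 254 and 236 CPM, against 94.2 and 93.8 CPM in Ubc9 control cells. Cyp2b23 alone made up 43.6% and 53.2% of that sum in the depleted libraries, against 25.1% and 27.4% in the controls. The filter on low counts left 42 members in the test and 51 out of it. Of the 42, 30 were higher and 2 lower, and 10 did not pass (adjusted p under 0.05 over the 16499 genes tested). Over all genes tested 21.1% were higher and 15.0% lower (3479 and 2467 genes). With library totals in place of TMM scaling factors the median of all genes moved up by 0.19 on the log2 scale, 4005 genes were higher and 1100 lower, and 28 members were higher and 0 lower. The median log2 fold change of the 42 was 2.44, against 0.06 over all genes, but 14 of the 42 had fewer than 10 counts in each control library and passed the filter only through the depleted libraries; 11 of these were among the 30. Among the 18 members with a mean of at least 1 CPM, 13 were higher and 2 lower with a median of 1.02, where 17.8% and 18.9% of all genes at that level were higher and lower.

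The number of members called moved with the library left out, as did that of all genes. With library 2 as the only depleted library, 39 members were tested, 27 were higher and 2 lower, where 19.0% and 15.3% of all genes were higher and lower; the lone library was taken to vary like the controls. Of the 30 genes, 25 were again higher; the 5 that were not are Cyp4f39, Cyp26b1, Cyp2d12, Cyp2c37 and Cyp2j13. With library 1 as the only depleted library, 85 members were tested, 78 were higher and 1 lower, where 41.8% and 22.9% of all genes were higher and lower. Without Ubc9 control library 1, where the spread is read from the dissimilar depleted pair, 9 of 85 members were higher and 0 lower, where 6.43% and 4.45% of all genes were. Without Ubc9 control library 2, 7 of 84 members were higher and 0 lower, where 6.09% and 3.93% of all genes were. The genes higher under every omission of a library were Cyp20a1, Cyp2a12, Cyp2b23, Cyp2c55, Cyp2j6, Cyp2t4 and Cyp4f37. Of these, Cyp2a12 had 5 and 6 counts in the controls and passed the filter only through the depleted libraries, so its place here supports nothing.

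**Figure D1:**
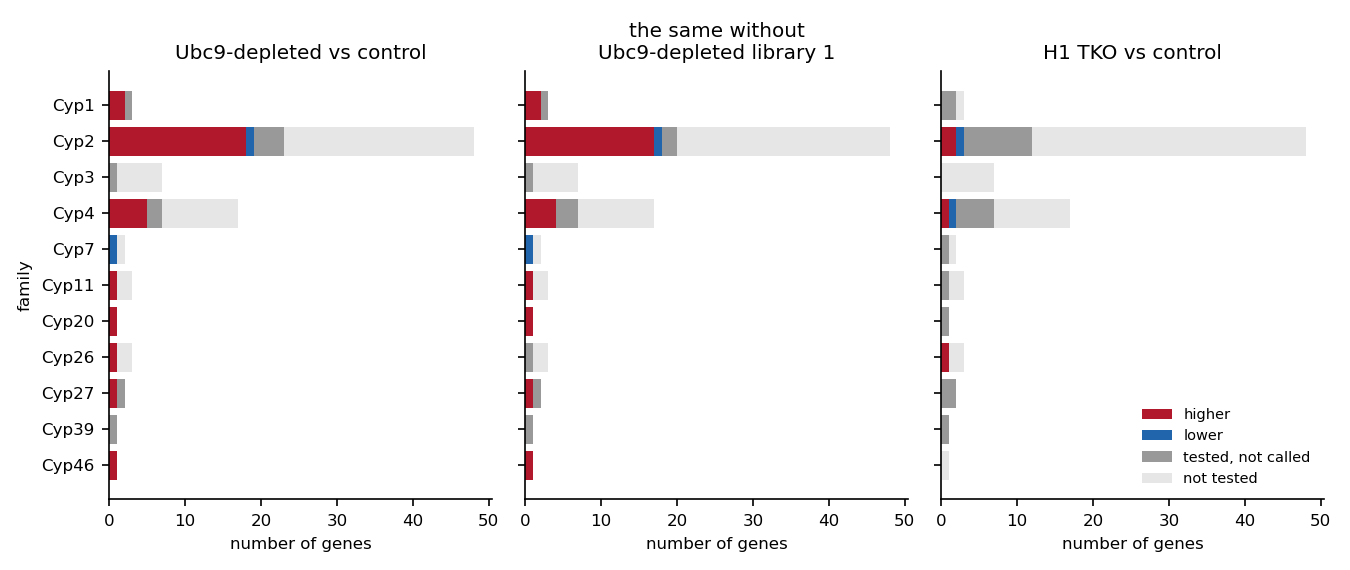
Number of P450 genes in each family that were higher, lower, tested but not called, or not tested, for Ubc9-depleted against control with all libraries (left) and without Ubc9-depleted library 1 (middle), and for H1 TKO against control (right). Family 2 holds 48 members, 23 of the 42 tested in the Ubc9 comparison. It holds 18 of the 30 genes that were higher in Ubc9-depleted cells. Families with no tested member are not drawn.

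Cyp2b23, a gene of the Cyp2b subfamily on chromosome 7 (26665227 to 26686437, minus strand), was the P450 transcript with the highest level per length in Ubc9-depleted cells. It had 111 and 126 CPM in Ubc9-depleted libraries, against 23.7 and 25.8 CPM in Ubc9 control libraries. The groups did not overlap, and the libraries within each lay close together. How often groups of 2 libraries fail to overlap over all genes was not counted. Here and below, groups that do not overlap are a description and support nothing. The log2 fold change was 2.26 ± 0.12 (standard error; adjusted p = 4.7e-15), and 2.34 without depleted library 1. Per kilobase of exon its level was 54.0 CPM in depleted and 11.3 CPM in control cells, and the next highest, Cyp20a1, an orphan P450 without a settled substrate, had 13.0 and 8.58. The summed level of 6 markers of the 2-cell stage (Zscan4c, Zscan4d, Zfp352, Tcstv1, Tcstv3, Dux) was 258 to 285 CPM in depleted and 11.2 to 11.5 CPM in control libraries; the part of cells in that state in the Cyp2b23 difference was not tested.

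Other members of family 2 on this list were low in control cells. Cyp2c55, an arachidonic acid hydroxylase, had 2.83 and 3.04 CPM in Ubc9-depleted cells, against 0.134 and 0.228 CPM in control cells, and Cyp2t4 had 3.92 and 3.85 CPM, against 0.710 and 0.619 CPM in control cells. Both depleted libraries agreed closely and lay above both controls, with log2 fold changes of 4.01 ± 0.55 (adjusted p = 1.3e-06) for Cyp2c55 and 2.55 ± 0.37 (adjusted p = 3.5e-06) for Cyp2t4. Cyp2t4 overlaps Egln2 on the opposite strand, which had 20.9 and 22.3 CPM in depleted and 27.0 and 22.8 CPM in control cells; the strand setting of the counting is not known here. Cyp2c55, Cyp2u1, Cyp2f2 and Cyp2s1 are likewise overlapped on the opposite strand, by Gm23800, 4930534D22Rik, Gm15883 and Gm26707. Cyp2c29 and Cyp11a1, also higher in depleted cells, overlap Cyp2c53-ps and Gm17322 on the same strand. Cyp2c53-ps was itself higher there (log2 fold change 3.50). Cyp2a12, a mouse bile acid hydroxylase, had 1.64 and 1.31 CPM in depleted cells, against 0.0514 and 0.0651 CPM in control cells (log2 fold change 4.63 ± 0.81, adjusted p = 5.2e-05). Its control counts were 5 and 6, and it passed the filter only through the depleted libraries. Of the 50-base stretches of its longest coding transcript, 27.5% occur in other genes.

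The epoxygenases of the Cyp2j subfamily, which turn arachidonic acid into signalling epoxides, differed between the depleted libraries. Cyp2j6 had 5.38 and 2.30 CPM in Ubc9-depleted cells, against 0.669 and 0.836 CPM in control cells, and its log2 fold change of 2.35 ± 0.40 (adjusted p = 3.7e-05) was 1.61 without depleted library 1. Cyp2j9 had 1.65 and 0.916 CPM in depleted cells, against 0.0514 and 0.0869 CPM in control cells, a log2 fold change of 4.19 ± 0.84 (adjusted p = 0.00029); the adjusted p was 0.10 and 0.058 without control library 1 and control library 2. Cyp2j13 had 71 and 10 counts in depleted cells and 0 in both control libraries, at least 28.9-fold higher when the controls are set at 3 counts over the group, and was left out of the test without depleted library 1. Library 1 was the higher of the pair for each of these genes. Cyp2j9, with 5 and 8 counts in the controls, and Cyp2j13 passed the filter only through the depleted libraries.

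Cyp2u1, a hydroxylase of long-chain fatty acids, had 3.56 and 2.03 CPM in Ubc9-depleted cells, against 0.638 and 0.630 CPM in control cells (log2 fold change 2.14 ± 0.47, adjusted p = 0.00075). Cyp2r1, which makes the circulating form of vitamin D, had 2.14 and 0.916 CPM in depleted cells, against 0.370 and 0.174 CPM in control cells (2.48 ± 0.70, adjusted p = 0.0067). In each case both depleted libraries lay above both controls, but the adjusted p was 0.057 and 0.13 for Cyp2u1 and Cyp2r1 without control library 1, and 0.064 and 0.38 without control library 2. The remaining family 2 genes that were higher (Cyp2b10, Cyp2b19, Cyp2c29, Cyp2c37, Cyp2c39, Cyp2c44, Cyp2c69, Cyp2d12 and Cyp2f2) had at most 0.928 CPM in any Ubc9 library, and each lost its call without control library 1 or control library 2 (adjusted p between 0.10 and 0.70). Cyp2b10, the classic liver target of the receptor Nr1i3, had 84 and 32 counts in depleted libraries and 4 and 0 in controls. Cyp2c37, with 39 and 12 counts in depleted libraries and 1 and 0 in controls, had a ratio of normalised counts of 54.7 with a 95% counting interval of 9.38 to 2202. All of these remaining genes but Cyp2b19 and Cyp2c44 had fewer than 10 counts in each control library and passed the filter only through the depleted libraries.

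**Figure D2:**
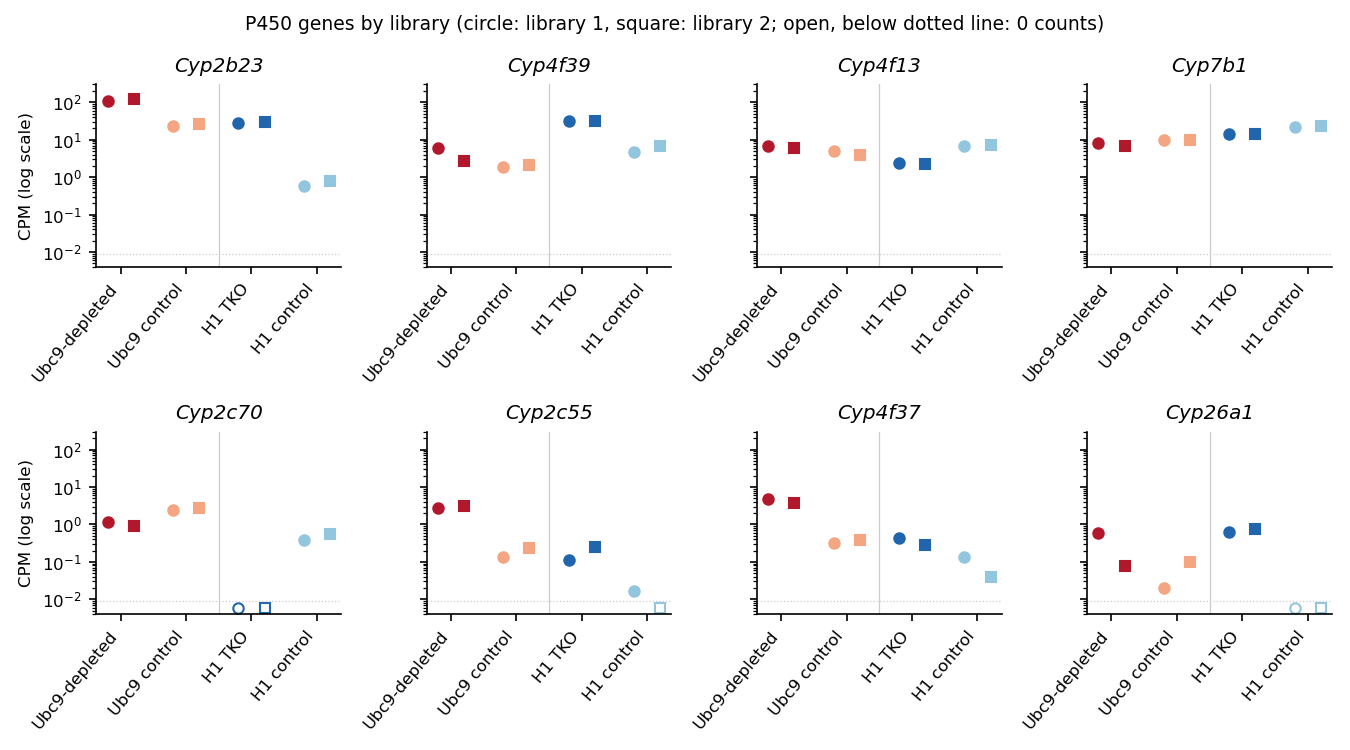
CPM of 8 P450 genes in each library on a log axis, with library 1 as circles, library 2 as squares and open symbols below the dotted line for 0 counts. Cyp2b23 was higher in Ubc9-depleted and H1 TKO libraries than in their controls, and Cyp2c70 was lower in both, with 0 counts in both H1 TKO libraries.

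The Cyp4f genes, whose enzymes hydroxylate the far end of fatty acids and leukotrienes, were the second group with several members higher in Ubc9-depleted cells. Cyp4f37 had 4.70 and 3.72 CPM in depleted cells, against 0.319 and 0.391 CPM in control cells (log2 fold change 3.56 ± 0.40, adjusted p = 2.9e-08), with 21.7% of its 50-base stretches shared with other genes. Cyp4f16 had 12.2 and 12.7 CPM in depleted cells, against 8.51 and 8.31 CPM in control cells, with 26.5% of its 50-base stretches shared with other genes. Cyp4f17 had 5.48 and 5.90 CPM in depleted cells, against 3.46 and 2.65 CPM in control cells. The groups did not overlap for these 3 genes, although the changes of Cyp4f16 (0.57 ± 0.12, adjusted p = 0.00064) and Cyp4f17 (0.90 ± 0.23, adjusted p = 0.0029) on the log2 scale were smaller and had adjusted p of 0.062 and 0.23 without control library 2. Cyp4f13 had 6.78 and 6.13 CPM in depleted cells, against 4.95 and 3.82 CPM in control cells (0.56 ± 0.19, adjusted p = 0.022, and 0.088 and 0.56 without control library 1 and control library 2). Cyp4f39, which hydroxylates the very long fatty acids of skin ceramides, had 6.18 and 2.66 CPM in depleted cells, against 1.92 and 2.11 CPM in control cells. Here 1 library decided the size: the log2 fold change was 1.14 ± 0.32 (adjusted p = 0.0063) with both depleted libraries and 0.39 (adjusted p = 0.20) without library 1, and the adjusted p was 0.19 and 0.14 without control library 1 and control library 2.

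Outside families 2 and 4, 7 genes were higher in Ubc9-depleted cells. The orphan Cyp20a1 had 27.0 and 32.4 CPM in depleted cells, against 20.3 and 18.9 CPM in control cells (log2 fold change 0.60 ± 0.11, adjusted p = 0.00013). Cyp1b1, which oxidises oestrogens and aromatic hydrocarbons, had 3.64 and 1.56 CPM in depleted cells, against 0.658 and 0.793 CPM in control cells (1.84 ± 0.49, adjusted p = 0.0043). Cyp27a1, the mitochondrial sterol hydroxylase of bile acid synthesis, had 1.72 and 1.88 CPM in depleted cells, against 0.843 and 0.521 CPM in control cells (1.40 ± 0.56, adjusted p = 0.049). In these 3 genes every depleted library lay above every control. Cyp46a1, the cholesterol hydroxylase of neurons, had 1.43 and 0.641 CPM in depleted cells, against 0.175 and 0.163 CPM in control cells. Cyp11a1, which starts steroid synthesis from cholesterol, had 0.759 and 0.615 CPM in depleted cells, against 0.113 and 0.0651 CPM in control cells. Cyp1a2, an oxidase of aromatic amines, had 0.489 and 0.340 CPM in depleted cells, against 0.0617 and 0.0434 CPM in control cells. It had 6 and 4 counts in the controls and passed the filter only through the depleted libraries. Of these 6 genes, Cyp20a1 alone kept its call without each control library; without control library 1 and control library 2 the adjusted p was 0.18 and 0.12 for Cyp1b1, 0.34 and 0.63 for Cyp27a1, 0.37 and 0.43 for Cyp46a1, 0.44 and 0.59 for Cyp11a1, and 0.63 and 0.71 for Cyp1a2. The seventh gene, Cyp26b1 of retinoic acid breakdown, had 1.89 and 0.393 CPM in depleted cells, against 0.154 and 0.195 CPM in control cells, and its adjusted p of 0.012 was 0.16 without depleted library 1, and 0.36 and 0.32 without control library 1 and control library 2.

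Cyp2c70 and Cyp7b1 were lower in Ubc9-depleted cells. Cyp2c70, which makes the muricholic acids of mouse bile, had 1.15 and 0.916 CPM in depleted cells, against 2.50 and 2.78 CPM in control cells. Both depleted libraries lay below both controls, with a log2 fold change of -1.35 ± 0.43 (adjusted p = 0.014, and 0.31 and 0.44 without control library 1 and control library 2). Cyp7b1, an oxysterol hydroxylase, had 8.37 and 6.74 CPM in depleted cells, against 9.59 and 10.1 CPM in control cells, a log2 fold change of -0.38 ± 0.14 (adjusted p = 0.034). Its adjusted p was 0.075 without depleted library 2, and 0.24 and 0.39 without control library 1 and control library 2. With library totals the adjusted p was 0.097 for Cyp2c70 and 0.49 for Cyp7b1.

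Cyp2s1, Cyp1a1 and Cyp39a1, among the more abundant members, did not pass. Cyp2s1 had 8.66 and 8.47 CPM in depleted cells, against 8.69 and 8.21 CPM in control cells (log2 fold change 0.02 ± 0.14, adjusted p = 0.92). Cyp1a1, the P450 most readily induced through Ahr, had 2.51 and 2.21 CPM in depleted cells, against 1.73 and 1.64 CPM in control cells (0.49 ± 0.39, adjusted p = 0.33), and Cyp39a1, another oxysterol hydroxylase, had 2.43 and 2.38 CPM in depleted cells, against 1.87 and 2.67 CPM in control cells (0.08 ± 0.34, adjusted p = 0.87). The depleted libraries lay above both controls for Cyp1a1 and within the range of the controls for Cyp2s1 and Cyp39a1.

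The 51 untested members of the Ubc9 table had few counts, most of them in 1 library. Every one of the 93 members had at least 1 count in Ubc9-depleted library 1, against 73 in depleted library 2 and 59 and 55 in the control libraries, and 89 members had 10 or more counts in library 1, against 41 in depleted library 2 and 27 and 26 in the controls. For 28 members library 1 had more than 1 count and each of the other 3 Ubc9 libraries at most 1, and for no member was this so of another Ubc9 library. Among them, Cyp24a1, which inactivates vitamin D, had 67 counts in depleted library 1 and 0 in depleted library 2 and in both controls. Cyp8b1, a bile acid hydroxylase, had 46, 0, 0 and 0 counts in the same order, and Cyp7a1, the rate-limiting enzyme of bile acid synthesis, had 27, 1, 0 and 0. Cyp17a1 and Cyp19a1, of androgen and oestrogen synthesis, had 47 and 18 counts in depleted library 1, 1 and 2 in depleted library 2 and 0 to 2 in each control. These genes were named after their values were seen. The tissues they are known from differ, and none of these genes reached 1 CPM.

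The same library held counts on most genes that were near 0 elsewhere. Of 46 members with at most 1 count in each control library, 46 had a count in depleted library 1 (5 to 73, median 25) and 28 (60.9%) in depleted library 2 (0 to 17, median 1). Of all 6248 genes with so few counts in the controls, 85.2% had a count in depleted library 1 and 29.2% in depleted library 2. Per kilobase of exon, the median level in depleted library 1 was 0.105 CPM for the P450 members and 0.0717 CPM for all such genes. What set this library apart was not tested.

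**Figure D3:**
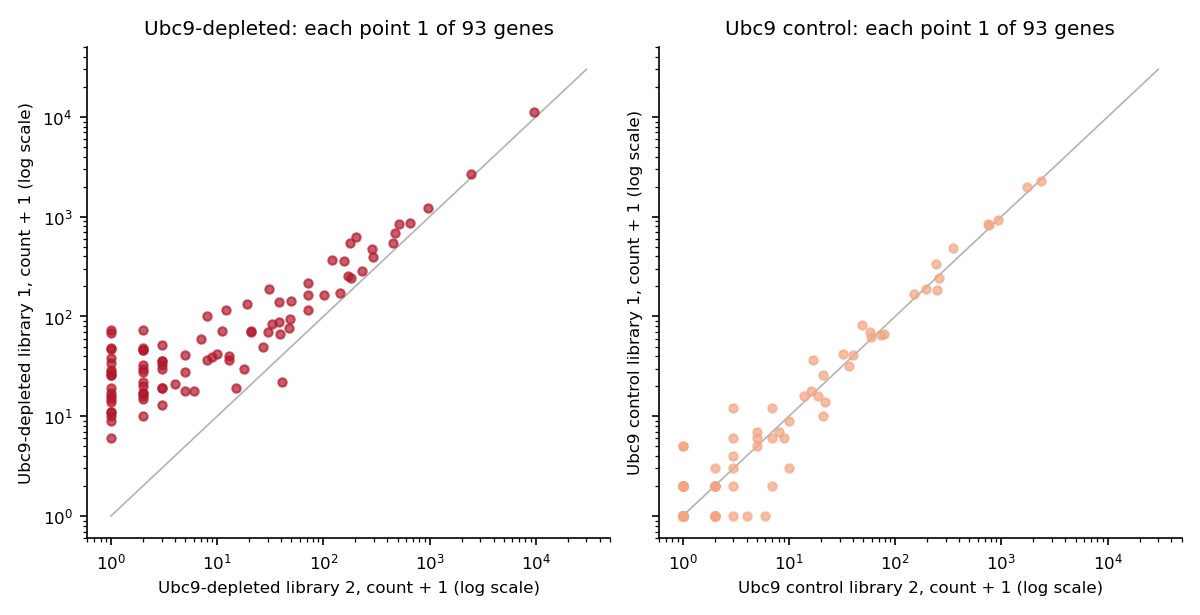
Counts plus 1 of the 93 P450 genes in library 1 (vertical) against library 2 (horizontal) on log axes, for Ubc9-depleted (left) and Ubc9 control (right) libraries; the line marks equal counts. Genes with 0 counts in depleted library 2 had between 5 and 73 counts in depleted library 1, whereas the control libraries scatter about the line.

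In H1 TKO cells the P450 transcripts came to 126 and 126 CPM, against 74.2 and 81.8 CPM in H1 control cells, and Cyp2b23 made up 22.7% and 23.7% of the sum in H1 TKO, against 0.774% and 0.996% in H1 control. Of the 93 members 28 were tested, 4 were higher, 2 lower and 22 did not pass, where 8.59% and 8.43% of all 14800 genes tested were higher and lower. Both counts are small, and the share of members called lower was near that of all genes. The median log2 fold change was 0.15, against -0.02 over all genes, and 35 members had 0 counts in each of the 4 H1 libraries. Of the 28, 4 had fewer than 10 counts in each H1 control library, 2 of them among the 4 called higher, and 2 had fewer than 10 in each H1 TKO library.

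Cyp2b23 and Cyp4f39 had the highest levels per length of the family in H1 TKO cells, with 13.3 and 10.9 CPM per kilobase of exon. Cyp2b23 had 28.5 and 29.9 CPM in H1 TKO, against 0.574 and 0.815 CPM in H1 control, a log2 fold change of 5.40 ± 0.30 (adjusted p = 0.00033). Cyp4f39 had 31.3 and 30.8 CPM in H1 TKO, against 4.83 and 6.94 CPM in H1 control, a log2 fold change of 2.40 ± 0.26 (adjusted p = 0.0016). For both genes the H1 TKO libraries were within a narrow range and far above the controls, and the call held without each library in turn. The summed level of the 2-cell-stage markers was 60.5 to 63.1 CPM in H1 TKO and 1.88 to 5.06 CPM in H1 control libraries, and its part in these differences was not tested.

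Cyp26a1, the main enzyme of retinoic acid breakdown in the embryo, had 28 and 49 counts (0.639 and 0.747 CPM) in H1 TKO and 0 in both H1 control libraries. That is at least 26.4-fold higher with the controls set at 3 counts over the group (adjusted p = 0.014), and the call held without each library. In the Ubc9 table Cyp26a1 was below the filter, with 59 and 6 counts in depleted and 2 and 9 in control libraries. Cyp2d12 had 25 and 16 counts in H1 TKO and 0 in both H1 controls, at least 14.1-fold higher (adjusted p = 0.033, and 0.25 without H1 TKO library 1). It shares 17.9% of its 50-base stretches with other genes and overlaps Gm27924 on the same strand. In the Ubc9 table Cyp2d12 had 41 and 9 counts in depleted and 1 and 1 in control libraries, a ratio of 26.8 with a 95% counting interval of 7.04 to 227, and was not tested without depleted library 1.

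Cyp4f13 and Cyp2c70 were lower in H1 TKO cells. Cyp4f13 had 2.40 and 2.30 CPM in H1 TKO, against 6.68 and 7.21 CPM in H1 control, a log2 fold change of -1.56 ± 0.28 (adjusted p = 0.012, and 0.059 and 0.096 without H1 TKO library 1 and library 2). Cyp2c70 had 0 counts in both H1 TKO libraries, against 24 and 29 counts (0.394 and 0.562 CPM) in H1 control, at least 17.2-fold lower (adjusted p = 0.023, and 0.098 and 0.14 without H1 TKO library 1 and library 2). In each gene both H1 TKO libraries lay below both controls.

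Cyp2s1, Cyp7b1, Cyp2u1 and Cyp20a1, among the more abundant members of the H1 table, did not pass the test. Their groups did not overlap, which was also so of other uncalled members such as Cyp4f17 and Cyp39a1. How often groups of 2 libraries fail to overlap over all genes was not counted, so this supports nothing here. Cyp2s1 had 8.86 and 8.40 CPM in H1 TKO, against 3.41 and 5.43 CPM in H1 control (log2 fold change 0.97 ± 0.31, adjusted p = 0.074, but 0.037 with DESeq2 and 0.015 with the replicate block). Cyp7b1 had 14.2 and 14.4 CPM in H1 TKO, against 21.3 and 22.7 CPM in H1 control (-0.62 ± 0.21, adjusted p = 0.084). Cyp2u1 had 2.28 and 2.56 CPM in H1 TKO, against 0.755 and 1.09 CPM in H1 control (1.40 ± 0.44, adjusted p = 0.069, but 0.049 with DESeq2). For these 3 genes the adjusted p lay between 0.28 and 0.67 without 1 of the H1 TKO libraries and between 2.8e-05 and 0.037 without 1 of the H1 controls. Cyp20a1 had 11.3 and 11.0 CPM in H1 TKO, against 12.0 and 11.7 CPM in H1 control (-0.09 ± 0.22, adjusted p = 0.82). A test that misses the threshold with 2 libraries a group does not show that levels were alike.

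**Figure D4:**
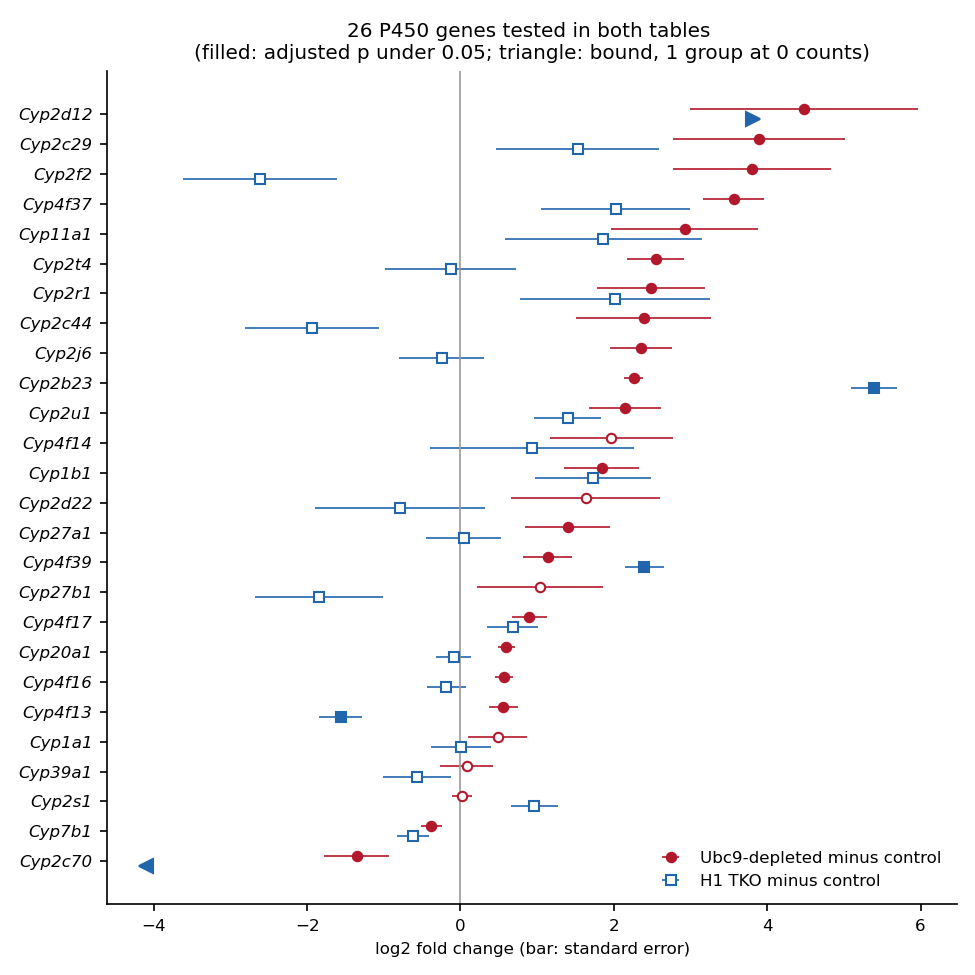
Log2 fold change with its standard error for the 26 P450 genes tested in both tables, Ubc9-depleted minus control (circles) and H1 TKO minus control (squares); filled symbols have an adjusted p under 0.05 and triangles are bounds where 1 group had 0 counts. Cyp2b23, Cyp4f39 and Cyp2d12 were higher in both, Cyp2c70 was lower in both, and Cyp4f13 was higher in Ubc9-depleted and lower in H1 TKO cells.

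Of the 26 members tested in both tables, 5 were called in both: Cyp2b23, Cyp4f39 and Cyp2d12 higher in both, Cyp2c70 lower in both, and Cyp4f13 higher in Ubc9-depleted and lower in H1 TKO cells. In the Ubc9 comparison the adjusted p with DESeq2 was 0.067 for Cyp4f39, 0.080 for Cyp2d12 and 0.22 for Cyp4f13, and without depleted library 1 Cyp4f39 was not called (0.20) and Cyp2d12 was not tested. The difference between the effects (Ubc9 effect minus H1 effect, with its sign) was tested in a fit of all 8 libraries, in which 50 members entered. Of these, 7 were called with a positive difference and 1 with a negative one. Over all 16974 genes 8.08% and 6.43% were (1372 and 1092 genes, or 1919 and 639 with library totals). A positive difference need not be a larger change, as Cyp2c70 was lower in both comparisons. Cyp2b23 had the negative difference: its effect in Ubc9-depleted cells was 3.16 ± 0.26 log2 units below that in H1 TKO cells (difference -3.16, adjusted p = 5.8e-05). Its starting levels were unlike, with a mean of 24.7 CPM in Ubc9 control and 0.695 CPM in H1 control libraries. The means were 118 CPM in Ubc9-depleted and 29.2 CPM in H1 TKO libraries. Cyp4f13, with opposite directions, differed by 2.10 ± 0.32 (adjusted p = 0.0017). For Cyp2c70 the adjusted p of the difference was 0.013; the fitted size rests on a group with 0 counts and is no measure of it. These 3 genes kept the call under each omission of 1 library. Cyp4f39 had a difference of -1.29 ± 0.45 (adjusted p = 0.084). That p was 0.018 with DESeq2, 0.034 with RLE factors, 0.00077 without the filter, 0.0028 with the replicate block and 0.24 with library totals, and lay between 0.0082 and 0.15 when 1 of the Ubc9 libraries was left out (0.012 without Ubc9-depleted library 1) and at most 0.062 when 1 of the H1 libraries was. The kit differs between the tables as well as the cells, and the 2 cannot be told apart in these differences.

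Many P450 genes lie in clusters of related copies, and neighbours within a cluster did not move together in every case. Several tested cluster members had fewer than 10 counts in each Ubc9 control library and passed the filter only through the depleted libraries. On chromosome 7 these were Cyp2b10, Cyp2a4, Cyp2a12 and Cyp2f2. In the other clusters they were Cyp2c29, Cyp2c37, Cyp2c39, Cyp2c67, Cyp2c69, Cyp2j9, Cyp2j13 and Cyp4f40. The Ubc9 counts of the clusters are therefore a description and support nothing. The counts below stand beside 21.1% of all genes higher and 15.0% lower in the Ubc9 comparison (19.0% and 15.3% without depleted library 1), and 8.59% and 8.43% in the H1 comparison. The chromosome 7 cluster (25802475 to 27158668) holds 13 members of subfamilies 2a, 2b, 2f, 2g, 2s and 2t; of 8 tested in the Ubc9 comparison 6 were higher, from Cyp2b10 at -789 kb from the start of Cyp2b23 to Cyp2t4 at the other end, and 7 were higher without depleted library 1. Cyp2s1, at the end of the cluster, did not pass in either table. In the H1 comparison 4 members of the cluster were tested and Cyp2b23 was the one that was called. The Cyp2c cluster on chromosome 19 (39007019 to 40187333) holds 14 members; of 7 tested in the Ubc9 comparison 5 were higher and Cyp2c70, at its end, was lower, and 5 were higher without depleted library 1. The Cyp4f cluster on chromosome 17 (32452723 to 32947402) holds 8 members, with Cyp4f39 and Cyp4f13 at its ends; of 7 tested in the Ubc9 comparison 5 were higher (4 without depleted library 1), and of 6 tested in the H1 table Cyp4f39 was higher and Cyp4f13 lower. The Cyp2j cluster on chromosome 4 (96027534 to 96664154) holds 7 members, of which 3 were tested and higher in the Ubc9 comparison, 2 of them without depleted library 1. Coordinates are those of GENCODE M21 on GRCm38.

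**Figure D5:**
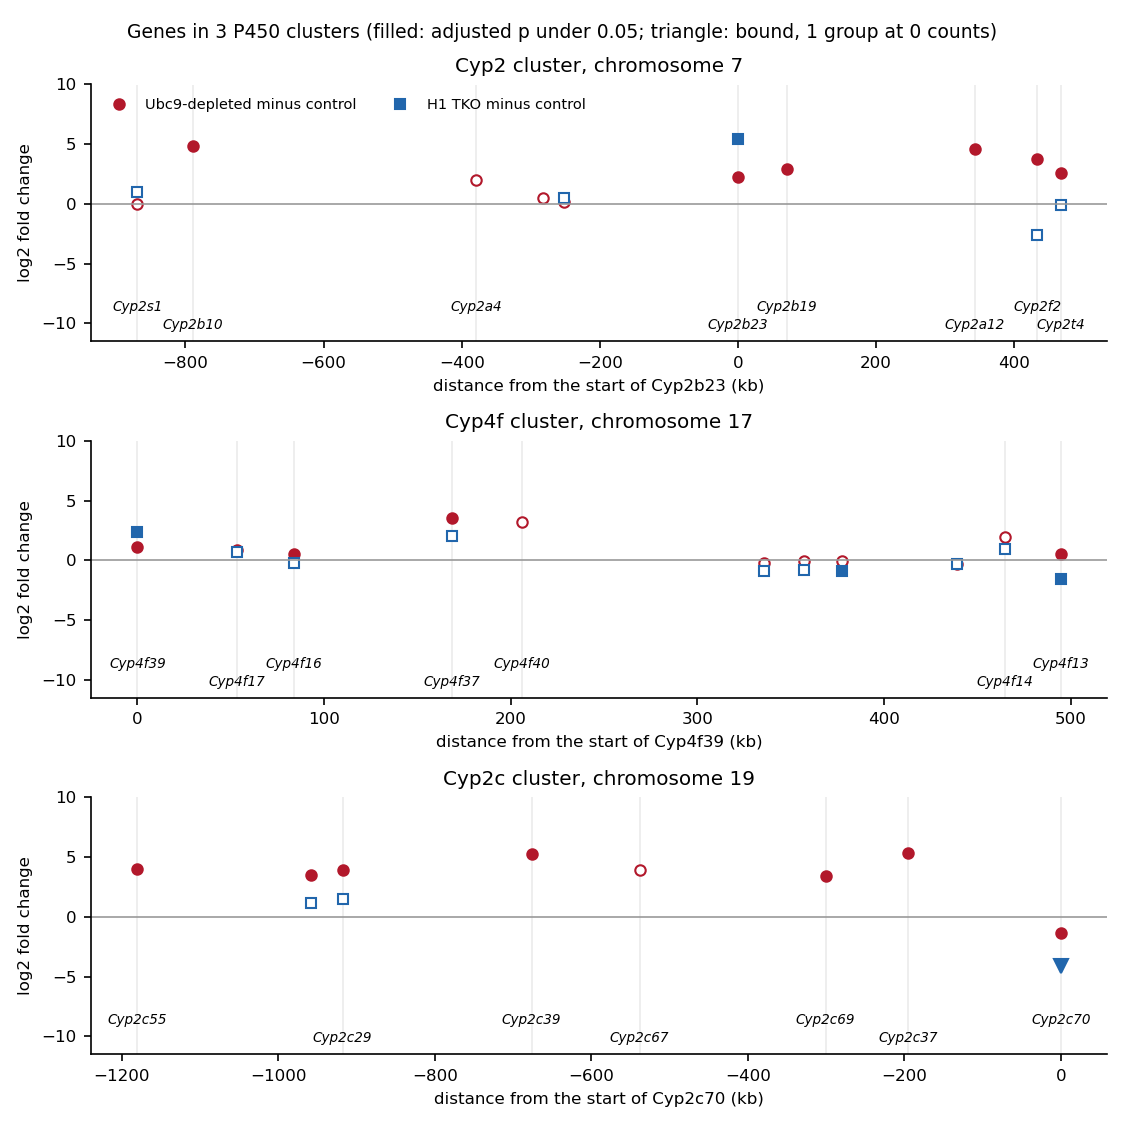
Log2 fold change by distance in kb along 3 P450 clusters, Ubc9-depleted minus control (circles) and H1 TKO minus control (squares); P450 genes are labelled and the unlabelled points are other genes within the cluster. In the Cyp4f cluster the H1 TKO values were 2.40 for Cyp4f39 at 1 end and -1.56 for Cyp4f13 at the other; triangles are bounds where 1 group had 0 counts.

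Genes that work with the P450 enzymes were described from 6 lists, beside medians over all genes of 0.06 in the Ubc9 and -0.02 in the H1 table. Over all genes tested, 21.1% were higher and 15.0% lower in the Ubc9 comparison, and 8.59% and 8.43% in the H1 comparison. The counts of each list are small, are set beside these shares as a description, and support nothing. Of 14 genes for electron supply and haem turnover, 1 was higher and 4 lower in Ubc9-depleted cells (median log2 fold change -0.13), and 0 were higher and 1 lower in H1 TKO cells (-0.27). Cyb5b, the cytochrome b5 of the outer mitochondrial membrane, was lower in both: it had 106 and 115 CPM in Ubc9-depleted cells, against 196 and 227 CPM in Ubc9 control cells (-0.94 ± 0.13, adjusted p = 9.6e-07), and 183 and 181 CPM in H1 TKO cells, against 522 and 449 CPM in H1 control cells (-1.41 ± 0.19, adjusted p = 0.0035). Por, the reductase that serves all microsomal P450 enzymes, had 47.5 and 46.2 CPM in Ubc9-depleted cells, against 59.0 and 55.9 CPM in Ubc9 control cells (-0.30 ± 0.11, adjusted p = 0.039); its adjusted p was 0.43 and 0.27 without control library 1 and control library 2, and 0.44 with library totals. For Cyb5b the adjusted p was 0.064 without H1 TKO library 2. The groups did not overlap for either gene, which supports nothing, as both were picked for a small p.

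Of 18 tested genes of the retinoid pathway, 6 were higher and 1 was lower on Ubc9 depletion (median 0.41), and 4 were higher and 6 lower in H1 TKO cells (median -0.31). Aldh1a3, which makes retinoic acid, had 35.7 and 34.3 CPM in H1 TKO, against 0.837 and 1.05 CPM in H1 control (5.22 ± 0.27, adjusted p = 0.00033). Dhrs3, which lowers its supply, had 15.7 and 14.8 CPM in H1 TKO, against 3.96 and 4.21 CPM in H1 control (1.91 ± 0.24, adjusted p = 0.0029). Stra8, which retinoic acid induces, was lower, with 8.17 and 7.78 CPM in H1 TKO, against 34.3 and 33.4 CPM in H1 control. In Ubc9-depleted cells the receptor Rxra had 33.1 and 42.4 CPM, against 20.7 and 20.6 CPM in Ubc9 control cells (0.87 ± 0.12, adjusted p = 1.1e-06).

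Of 22 genes of sterol synthesis and its control, 1 was higher and 9 were lower on Ubc9 depletion (median -0.25), and 0 were higher and 5 lower in H1 TKO cells (median -0.40). Pmvk, of the mevalonate pathway, had 13.7 and 13.4 CPM in Ubc9-depleted cells, against 26.2 and 24.9 CPM in Ubc9 control cells (-0.92 ± 0.11, adjusted p = 8.8e-08), and Dhcr7, of the last steps of cholesterol synthesis, had 62.2 and 60.2 CPM in H1 TKO, against 152 and 211 CPM in H1 control (-1.57 ± 0.22, adjusted p = 0.0047). With library totals in place of scaling factors, 4 of the 22 were higher in Ubc9-depleted cells. Of steroid and bile acid enzymes other than P450, 1 of 12 tested was higher and 0 lower in Ubc9-depleted cells (median 0.03), and 0 of 11 were higher and 1 lower in H1 TKO cells (median -0.04).

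Of 16 tested nuclear receptors and other regulators of P450 genes, 5 were higher and 1 was lower on Ubc9 depletion (median 0.38), and of 17 tested 4 were higher and 0 lower in H1 TKO cells (median 0.71). Ahr, the receptor behind induction of family 1, was the lower one: it had 16.8 and 15.2 CPM in Ubc9-depleted cells, against 21.3 and 25.1 CPM in Ubc9 control cells (-0.53 ± 0.11, adjusted p = 0.00051, and 0.076 with library totals). Vdr, the vitamin D receptor, had 5.74 and 6.18 CPM in Ubc9-depleted cells, against 3.14 and 2.90 CPM in Ubc9 control cells (0.98 ± 0.22, adjusted p = 0.000865, and 0.070 without control library 2). Of 13 tested enzymes of fatty acid epoxides and eicosanoids, 6 were higher and 2 were lower on Ubc9 depletion (median 0.49), and of 12 tested 4 were higher and 1 lower in H1 TKO cells (median 0.94). Alox5, which starts leukotriene synthesis, had 2.56 and 2.58 CPM in Ubc9-depleted cells, against 0.195 and 0.152 CPM in Ubc9 control cells (3.87 ± 0.58, adjusted p = 5.6e-06). Ptges, a prostaglandin E synthase, had 13.0 and 13.5 CPM in Ubc9-depleted cells, against 21.9 and 23.4 CPM in Ubc9 control cells (-0.77 ± 0.11, adjusted p = 1.9e-06), and 211 and 211 CPM in H1 TKO, against 37.3 and 58.7 CPM in H1 control (2.14 ± 0.26, adjusted p = 0.0024). The groups did not overlap in any of these genes, which supports nothing, as they were picked for a small p. Without Ubc9-depleted library 1 the 6 lists, in the order given, had 1, 6, 1, 2, 5 and 6 genes higher and 3, 1, 7, 1, 1 and 2 lower.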

How the data were processed

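The authors deposited 1 table of raw counts by gene symbol for each comparison. Tool versions, the annotation and the strand setting were not given in the sources used here. The submitters' processing notes name cutadapt, STAR, HTSeq and DESeq2 and the build mm10. Per the labels, the kit was ScriptSeq v2 for Ubc9 and Lexogen SENSE V2 for H1 libraries. All 8 libraries were used. Members, lists and alternatives were chosen with earlier results of these data known.

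Each table was fitted alone with edgeR 4.0.16 in R 4.3.3. Genes passed filterByExpr (minimum count 10, minimum total 15), were scaled by TMM factors and tested by quasi-likelihood F tests, with p-values adjusted by Benjamini-Hochberg at 0.05 over 16499 (Ubc9) and 14800 (H1) genes. The biological coefficients of variation were 0.255 and 0.239. CPM uses library sizes multiplied by the TMM factor, so that 3 counts are 0.0299 to 0.0685 CPM. A group at 0 counts was set at 3 counts over the group for a bound, and counting intervals cover counting error only. On simulated counts of the Ubc9 design the test recovered 69% of 2-fold and 74% of 4-fold changes, with 6.54% of calls false. On those of the H1 design it recovered 24% and 87%, with 5.93% false. The changed genes were drawn only from those above a minimum mean count, and each gene had the same spread in all libraries. Recovery of changes in genes with few counts, and a library that stands apart, were thus not covered. Of the members, 92 have an entry in GENCODE M21 (Cyp2c44 by an older name). Sharing was read from the longest coding transcript of each. Of these, 38 share over 10% of its 50-base stretches with other genes, so that reads may be split or lost, and 25 share none.

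Named genes are the targets, the 10 members with the highest CPM, the 10 called members with the largest change at 0.5 CPM or more, members called lower, in both tables, in the difference of effects or with and without depleted library 1, and 4 genes of each list with the smallest p. A few genes that these rules pick are not reported here. Alternatives were DESeq2 1.42.0, RLE factors, library totals, no filter, a 2-fold minimum, a replicate block and the omission of single libraries, where the library left alone was taken to vary like those of the other group.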

Additional observations from a re-analysis of the deposited data

Results flagged for a closer look

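For 8 P450 genes the log2 effect in Ubc9-depleted cells differed from the log2 effect in H1 TKO cells in edgeR's test of that difference. The difference (Ubc9 effect minus H1 effect) was -3.16 for Cyp2b23 and 2.10 for Cyp4f13. The fitted value of 6.84 for Cyp2c70 is no measure of its size, since both H1 TKO libraries had 0 counts. Over the omissions of 1 library each, the adjusted p lay between 4.5e-28 and 0.0023 for Cyp2b23, between 2.4e-08 and 0.013 for Cyp4f13 and between 0.00013 and 0.037 for Cyp2c70. For Cyp2f2, an enzyme of lung airway cells, the difference was 6.37 (adjusted p = 0.019, highest 0.13 without Ubc9 control library 2). It was 2.56 for Cyp2j6 (0.047, highest 0.19 without Ubc9-depleted library 1), 2.66 for Cyp2t4 (0.040, highest 0.19 without Ubc9 control library 2) and 4.30 for Cyp2c44 (0.047, highest 0.22 without Ubc9 control library 2). Cyp4v3, with a difference of 7.57 (0.048, highest 0.35 without Ubc9 control library 2), had 100 and 7 counts in Ubc9-depleted libraries, 5 and 2 in Ubc9 control, 0 and 1 in H1 TKO and 11 and 5 in H1 control, and was tested in neither table alone. The kits of the tables differ, so the kit and the cells cannot be told apart here. Groups of 2 libraries are too small for the test of a single outlying value.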

How the results depend on the processing

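Of 540 values of single named genes under settings other than leaving out a library, 492 kept their direction and their side of the threshold; of 463 values that leave out a library, 324 did. P450 genes higher in Ubc9-depleted cells numbered 22 with DESeq2, 31 with RLE factors, 28 with library totals, 22 without the filter and 26 at a 2-fold minimum, against 30, and between 7 (without control library 2) and 78 (without depleted library 2) when a library was left out. P450 genes lower there numbered 1 with DESeq2, 0 with library totals and 1 at a 2-fold minimum, and 0 to 2 when a library was left out. Those higher in H1 TKO cells numbered 7 with DESeq2 and 3 to 10 when a library was left out, and those lower 0 to 5. P450 genes called with a negative difference (Ubc9 effect minus H1 effect) numbered 3 with DESeq2, with RLE factors, without the filter and with the replicate block. The numbers with a positive and with a negative difference also moved when a library was left out. The labels do not say what a replicate number shares, same-numbered libraries deviated together with correlations of -0.003 (Ubc9) and 0.156 (H1), and with the replicate number as a block the Ubc9 comparison had 29 P450 genes higher and 2 lower and the H1 comparison 6 higher and 2 lower. In the Ubc9 lists, DESeq2 gave 0 genes of electron supply, 3 of the retinoid pathway, 0 of sterol synthesis and 2 of steroid enzymes higher, and 2 regulators lower. Library totals gave 4 sterol genes higher, and 1 gene of electron supply, 0 retinoid genes and 0 regulators lower. A 2-fold minimum gave 0 genes of electron supply, 3 retinoid genes, 0 sterol genes and 1 regulator higher, and 0 lower in the lists of electron supply, retinoid, sterol, regulators and eicosanoids; the block gave 2 regulators lower. In the H1 lists, sterol genes higher numbered 1 with DESeq2, library totals, no filter and the block; sterol genes lower numbered 8 with DESeq2, no filter and the block and 3 at a 2-fold minimum; steroid enzymes lower numbered 2 with no filter and the block and 0 at a 2-fold minimum. Leaving out a library gave, in Ubc9-depleted cells, 0 to 2 genes of electron supply higher and 1 to 9 lower, 2 to 10 retinoid genes higher and 0 to 1 lower, 0 to 1 sterol genes higher, 0 to 10 steroid enzymes higher and 0 to 1 lower, 1 to 10 regulators higher and 1 to 3 lower, and 3 to 7 eicosanoid enzymes higher. In H1 TKO cells it gave 0 to 3 genes of electron supply higher and 0 to 6 lower, 2 to 6 retinoid genes higher and 3 to 8 lower, 0 to 3 sterol genes higher and 2 to 15 lower, 0 to 1 steroid enzymes higher and 0 to 2 lower, 0 to 8 regulators higher and 0 to 2 lower, and 1 to 6 eicosanoid enzymes higher and 1 to 2 lower. Among the genes named by rule, directions turned in those given next, with changes between -0.24 and 0.082; outside them, Cyp27b1 (1.04) and Cyp3a13 (0.65), not called, had -0.69 and -1.53 without depleted library 1. In Ubc9-depleted cells the log2 fold change of Cyp2s1 was -0.043 with DESeq2, -0.011 with RLE factors, -0.013 without the filter and between -0.053 and 0.037 when a library was left out, that of Cyp39a1 lay between -0.18 and 0.33 when a library was left out and that of Star, the cholesterol carrier of steroid synthesis, 0.026 with library totals. In H1 TKO cells that of Cyp1a1 was -0.076 with library totals, -0.014 without the filter, -0.044 with the block and between -0.46 and 0.34 when a library was left out; those of Cyp2j6, Cyp2t4 and Cyp4f16 lay between -0.81 and 0.28, between -0.68 and 0.29 and between -0.35 and 0.0052. The causes of these changes were not tested. Levels near 3 counts and the 51 and 65 untested members are limited by depth.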
